A study of Mus musculus with 12 samples.

Results

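Binding of the glucocorticoid receptor (GR) to DNA was compared between BWTG3 mouse hepatoma cells that received tumour necrosis factor (TNF) alone and cells that received neither agent. All libraries named TNF or NI by their sample titles were taken, 2 and 3 of them, out of 12 samples in the series. Their 5 peak lists held 20582 merged nuclear regions, beside 47491 regions over all 11 peak lists of the series. The measurement was chromatin immunoprecipitation with sequencing (ChIP-seq) with a rabbit antibody against GR, 1 peak list per library. Before the experiment all cells spent 24 h in serum-free Opti-MEM. The TNF cells had recombinant TNF at 1000 U/ml with 3 h of stimulation in total, and no dexamethasone (Dex, a synthetic glucocorticoid). The NI cells had neither TNF nor Dex as far as the titles say. All 5 libraries therefore show GR without added ligand. Other groups of the series, read only at these regions, had 1 µM Dex for the same 3 h (DEX, 3 libraries) or TNF 1 h before Dex (TNFDEX, 3 libraries). The design text calls the replicates biological. BWTG3 is a single transformed line, and a peak list gives no expression, so liver cell markers could not check the cell type.

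GR is a nuclear receptor that waits in the cytoplasm in a complex with heat shock protein 90 and moves to the nucleus when it binds a glucocorticoid. There it binds glucocorticoid response elements, or sits on DNA through other factors such as AP-1 and NF-kB. TNF acts through its receptor, the adaptor Tradd and the ubiquitin ligases Birc2 and Birc3. Those lead to the IkB kinases, which release NF-kB from its inhibitors, and to MAP kinases, which act on AP-1. In liver cells this pathway is known for inflammatory and acute phase genes, many of which glucocorticoids also control.

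The data show a small common core and many peaks seen once. Without added ligand, 148 regions carried a GR peak in all 5 libraries, led by sites inside Skp2, Nfatc2 and Stard13 and by sites far from genes. A GR peak was found in both TNF libraries and in no NI library at 115 regions, or 0.559% of all regions, among them the start of Slc35b2 next to the NF-kB inhibitor gene Nfkbie and a site just past the end of Junb. The opposite pattern, a peak in all 3 NI libraries and in no TNF library, was found at 9 regions, or 0.0437%. No region called in all 5 libraries passed the test for a different level with TNF (limma, adjusted p at least 0.995 for each of 148), and 0 of them reached an unadjusted p of 0.05.

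4 promoters are printed because they show where the called regions lie against the start of genes from both sides of the comparison. Of the 5 libraries, Slc35b2 had a peak in both TNF libraries, and Ddit4 in NI replicates 1 and 2 and TNF replicate 1. Errfi1 and Igfbp1 had a peak in NI replicates 1 and 2, so they are not among the regions called in all NI libraries. A call in 2 NI libraries and no TNF library was found at 267 regions, or 1.30% of all regions. Each is the 250 bases before the annotated start, 5′ to 3′ on the gene's strand, from RefSeq on GRCm38.p6, which shares its coordinates with mm10, the build of the peak lists. Capitals mark matches to the motifs searched on either strand, which here are the NF-kB consensus, the CCAAT box (CCAAT) and the GC box (GGGCGG).
Slc35b2: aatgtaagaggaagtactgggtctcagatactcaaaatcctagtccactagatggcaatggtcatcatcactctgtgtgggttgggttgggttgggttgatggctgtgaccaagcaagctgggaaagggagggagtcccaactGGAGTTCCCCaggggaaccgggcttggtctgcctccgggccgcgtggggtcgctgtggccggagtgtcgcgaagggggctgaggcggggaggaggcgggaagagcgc
Ddit4: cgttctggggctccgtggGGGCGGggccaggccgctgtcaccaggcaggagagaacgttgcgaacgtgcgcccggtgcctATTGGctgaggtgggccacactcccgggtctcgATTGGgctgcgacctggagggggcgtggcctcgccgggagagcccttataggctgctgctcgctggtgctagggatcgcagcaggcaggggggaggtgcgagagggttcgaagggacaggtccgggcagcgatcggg
Errfi1: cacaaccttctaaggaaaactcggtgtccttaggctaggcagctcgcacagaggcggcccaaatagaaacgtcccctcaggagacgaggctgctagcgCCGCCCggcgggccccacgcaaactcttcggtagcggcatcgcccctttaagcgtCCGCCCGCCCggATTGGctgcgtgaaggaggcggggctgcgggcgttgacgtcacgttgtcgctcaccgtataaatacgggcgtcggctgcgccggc
Igfbp1: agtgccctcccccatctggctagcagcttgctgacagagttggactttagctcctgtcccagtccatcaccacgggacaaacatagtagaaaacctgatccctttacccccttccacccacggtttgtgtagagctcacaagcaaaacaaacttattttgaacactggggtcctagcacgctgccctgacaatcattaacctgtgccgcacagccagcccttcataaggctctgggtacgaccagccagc

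The Slc35b2 stretch is chr17:45563686-45563935 on the plus strand, and the TNF-only region chr17:45563853-45564002 covers its last 83 bases. Its NF-kB consensus match lies before the region and outside it. The Ddit4 stretch is chr10:59951771-59952020 on the minus strand, with 131 of its bases in the region chr10:59951655-59951901. The Errfi1 stretch is chr4:150854820-150855069 on the plus strand, with 32 bases in the region chr4:150855038-150855208. The Igfbp1 stretch is chr11:7197537-7197786 on the plus strand, with 25 bases in the region chr11:7197762-7197922. Every capital letter in these 4 stretches lies outside the called region. No GR half-site (AGAACA) was found in any of the 4.

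The number of GR peaks did not separate the groups. NI replicates 1, 2 and 3 held 5441, 6501 and 2522 nuclear peaks, and TNF replicates 1 and 2 held 8942 and 4130. TNF replicate 1 had the most peaks of the 5 and NI replicate 3 the fewest, while TNF replicate 2 lay below NI replicates 1 and 2. The means were 4821 ± 2061 (SD, n = 3) in NI and 6536 ± 3403 (SD, n = 2) in TNF, a ratio of 1.36 on the log scale (exact two-sided permutation p = 0.6, 0.6 after Benjamini-Hochberg adjustment over 5 such tests). With 3 against 2 libraries the smallest p such a test can give is 0.1. Without TNF replicate 1 the log2 difference was -0.11 in place of 0.44.

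Tags in nuclear peaks followed the same order as the peaks. They made up 0.288%, 0.439% and 0.106% of all tags in NI and 0.722% and 0.179% in TNF. The mean shares were 0.278% ± 0.167 (SD, n = 3) and 0.451% ± 0.384 (SD, n = 2), and the groups overlapped (exact two-sided permutation p = 0.6, adjusted 0.6). Without TNF replicate 1 the difference was -0.0988 percentage points in place of 0.173. Depth was even, from 39452055 to 43579727 tags per library, so the 95% Wilson interval of TNF replicate 2 ran only from 0.178% to 0.180%. Such intervals cover counting error only.

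Tags in mitochondrial peaks moved with the smaller lists. NI replicate 3 had 0.436% of its tags in mitochondrial peaks and TNF replicate 2 had 0.468%, while the other three had 0.00645% to 0.0348%. The labels name no batch, and this split was read from the data. Within it TNF had more peaks on both sides, with 8942 against 5441 and 6501 on the low side and 4130 against 2522 on the high side. The within-split ratio was 1.57 (exact permutation over 6 arrangements, p = 0.167, the smallest possible, adjusted 0.278). For the share of tags in nuclear peaks the within-split difference was 0.216 percentage points (exact permutation p = 0.167). Per the file headers, at most 1 tag per base was counted in TNF replicate 1 and at most 2 in the other four. Its part in the larger list of that library was not tested.

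**Figure D1:**
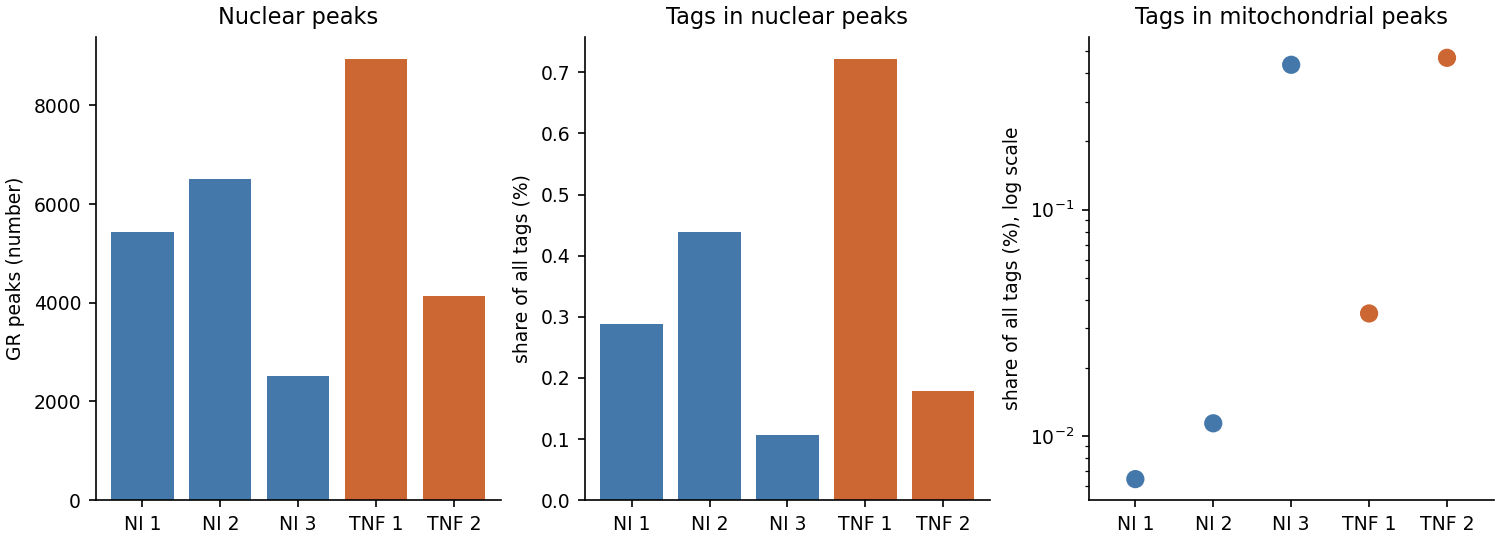
For each library (x axis) the panels show the number of nuclear GR peaks, the share of all tags in those peaks (%), and the share of all tags in mitochondrial peaks (%, log axis), with NI in blue and TNF in orange. TNF replicate 1 has the most peaks (8942) and NI replicate 3 the fewest (2522), and NI replicate 3 and TNF replicate 2 stand apart in mitochondrial tags (0.436% and 0.468%).

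The groups overlapped in where their peaks lay, except for the share inside genes. Of the peaks, 52.1%, 52.8% and 51.7% lay inside a protein-coding gene in NI, and 48.4% and 50.2% in TNF. Both TNF libraries were below all NI libraries, with means of 49.3% ± 1.22 (SD, n = 2) and 52.2% ± 0.579 (SD, n = 3). The difference of -2.90 percentage points had an exact two-sided permutation p of 0.1, the smallest possible, and 0.5 after adjustment over the 5 tests. Within the mitochondrial split it was -2.77 points (exact permutation p = 0.167, the smallest possible). Peaks of a normalized tag count of at least 10 gave -5.14 points. The normalized tag count is the authors' number of tags in a peak scaled to 20000000 tags per library.

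Peaks within 1 kb of either end of a gene made up 19.8%, 23.2% and 16.9% in NI and 17.9% and 14.5% in TNF. TNF replicate 1 lay inside the NI range and TNF replicate 2 below it, a mean difference of -3.75 points (exact two-sided permutation p = 0.3, adjusted 0.5). Among peaks of at least 10 normalized tags the difference was -10.3 points (exact permutation p = 0.1, the smallest possible), so the size of this measure depends on the weak peaks. Peaks over 50 kb from any gene made up 23.3% ± 1.58 (SD, n = 3) in NI and 24.9% ± 0.788 (SD, n = 2) in TNF (exact permutation p = 0.3, adjusted 0.5).

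At gene starts the called regions lay mostly after the start rather than before it. Of the 1990 regions called in at least 2 NI libraries, 457 had their midpoint within 500 bp of an annotated start, and in 335 of these (73.3%) it lay downstream, with a median of 61 bp after the start. Of the 914 regions called in both TNF libraries, 123 lay that near, 74 of them (60.2%) downstream, with a median of 41 bp. By library the downstream share was 73.6%, 70.2% and 77.3% in NI and 65.2% and 68.8% in TNF. Both TNF shares were below every NI share, which was seen after the values were computed and has no test here.

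Most regions were found in 1 library only. Of the regions called by a library, 58.7%, 44.0% and 82.9% were called in no other of the 5 in NI, and 57.7% and 74.0% in TNF. The highest Jaccard index, the share of the regions of both lists that both hold, was 0.274 between NI replicate 2 and TNF replicate 1. It was 0.183 between NI replicates 1 and 2, and 0.0752 between the 2 TNF libraries. The mean index was 0.0822 within groups and 0.108 between groups, a difference of -0.026. Without TNF replicate 1 the difference was 0.020, with the higher mean then within groups, so its sign rested on that library.

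The strong regions were shared far more than the lists. Of the 100 strongest regions of NI replicate 2, TNF replicate 1 called 99 and NI replicate 1 called 96. Of the 100 strongest of TNF replicate 2, TNF replicate 1 called 91, NI replicate 2 called 85 and NI replicate 3 called 40. NI replicate 3 stood apart: the other libraries called between 60 and 67 of its 100 strongest regions.

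**Figure D2:**
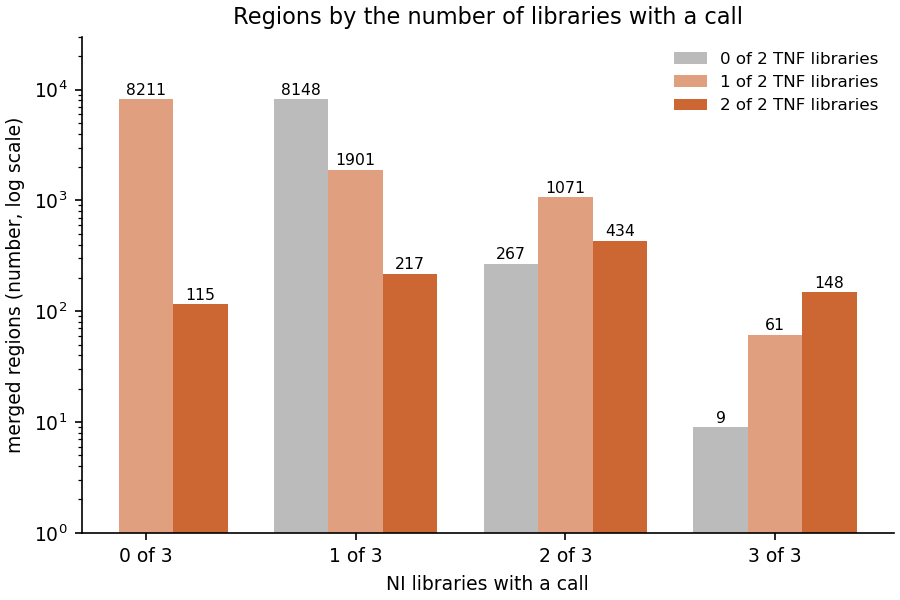
Number of merged regions (y axis, log scale) by the number of NI libraries with a call (x axis) and of TNF libraries with a call (colour). The bars at no NI call and 1 TNF call (8211) and at 1 NI call and no TNF call (8148) are the highest, against 115 for both TNF and no NI and 9 for all NI and no TNF.

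Regions found more than once were largely common to both groups. Of the 914 regions called in both TNF libraries, 799 (87.4%) had a call in at least 1 NI library and 582 (63.7%) in at least 2. Those 582 were 29.2% of the 1990 regions called in at least 2 NI libraries. They were 160 without NI replicate 1, 149 without NI replicate 2 and 1684 without TNF replicate 2. Of the 218 regions called in all 3 NI libraries, 148 (67.9%) were called in both TNF libraries. Where a library had no call, its level there was not measured and is not taken as 0.

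The strongest core site lay inside Skp2 (chr15:9114684-9114863), which encodes a subunit of a ubiquitin ligase that drives cells into S phase. Its normalized tag counts were 106.5, 149.8 and 33.4 in NI and 194.7 and 40.8 in TNF. A neighbouring region inside Skp2 (chr15:9115078-9115263) had 46.5, 86.5 and 24.7 in NI and 100.4 and 34.4 in TNF. At both, TNF replicate 1 was the highest library and NI replicate 3 the lowest, and the groups overlapped.

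A region inside Nfatc2, a transcription factor gene of calcium signalling (chr2:168532138-168532330), had 81.2, 131.4 and 25.2 in NI and 161.2 and 41.8 in TNF. A region 32.8 kb from Tle3, which encodes a Groucho family corepressor (chr9:61339368-61339550), had 90.1, 123.2 and 19.9 in NI and 139.9 and 34.4 in TNF. A region inside Stard13 (chr5:151417127-151417290) had 47.5, 85.1 and 29.1 in NI and 128.3 and 57.4 in TNF. At Stard13 alone among the 10 strongest sites, TNF replicate 2 exceeded NI replicate 1.

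The other strong core sites lay outside protein-coding genes. The region 195.3 kb from Aldoart1 (chr4:73047923-73048090) had 72.8, 146.4 and 26.2 in NI and 196.2 and 38.6 in TNF. The region 231.9 kb from Nfib, a nuclear factor I gene (chr4:82058095-82058283), had 55.0, 100.5 and 22.8 in NI and 145.5 and 28.5 in TNF. The regions 206.8 kb from Slc39a11, 36.2 kb from Gm5294 and 179.8 kb from Fut10 had 21.3 to 93.8 in NI and 27.1 to 135.4 in TNF. Of all 148 core regions, 37.2% lay over 50 kb from a protein-coding gene, beside 23.7% of all 20582 regions, and 14.2% lay within 1 kb of a gene end, beside 17.9%.

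**Figure D3:**
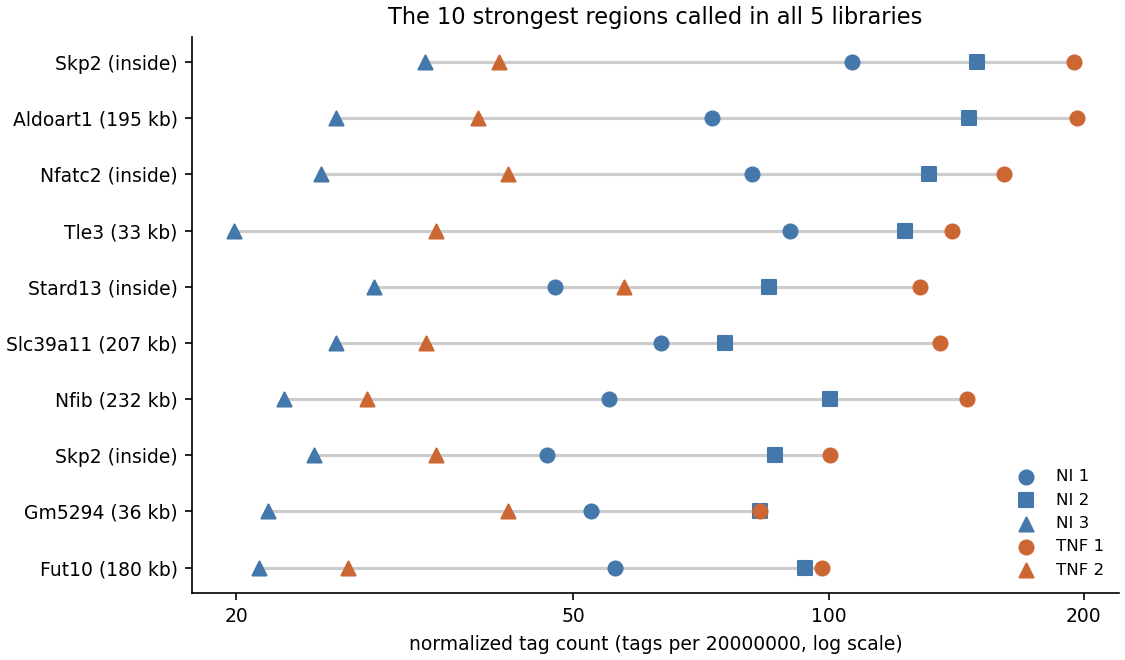
Normalized tag count (x axis, tags per 20000000, log scale) of each library at the 10 strongest regions called in all 5, named by the nearest protein-coding gene, with NI in blue and TNF in orange and 1 symbol per replicate. In each row NI replicate 3 is the lowest point and TNF replicate 1 is the highest or level with NI replicate 2, so both groups span the row.

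Levels at the 148 core regions differed widely between libraries of the same group. Their median normalized tag count was 21.6, 32.6 and 10.7 in NI and 45.9 and 13.3 in TNF. TNF replicate 1 was the highest library at 128 of them and NI replicate 3 the lowest at 101. The full order of TNF replicate 1, NI replicate 2, NI replicate 1, TNF replicate 2 and NI replicate 3 was met at 70. Before scaling, the median log2 difference between TNF and NI over these regions was 0.34, and the differences below are relative to it.

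In limma with scaling by the trimmed mean of M values, no core region was called higher and none lower (adjusted p under 0.05, 0.0% of 148 in each direction). The smallest unadjusted p was 0.0822, and the median standard error of 0.40 was larger than the median absolute difference of 0.21 (log2). With the mitochondrial split as a term, 16 regions had an unadjusted p under 0.05 and the smallest adjusted p was 0.0843, which is still no call. Within the split, before scaling, TNF was higher on both sides at 100 core regions and lower on both sides at 3.

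The 5 regions of smallest p did not pass the test. A region 14.5 kb from Pecr, an enzyme of fatty acid elongation, had 32.2, 36.7 and 7.3 in NI and 22.8 and 10.1 in TNF, with a log2 difference of -0.78 ± 0.43 (SE, limma adjusted p = 0.995). A region 9.4 kb from Gm50595 (chr2:75643360-75643589) had 47.5, 70.6 and 7.3 in NI and 96.3 and 45.4 in TNF, the largest positive log2 difference of the 148 at 0.84. A region 138.6 kb from Ptbp2, a neuronal splicing regulator gene (chr3:119923198-119923366), had 13.9, 15.0 and 11.6 in NI and 50.2 and 15.1 in TNF, a difference of 0.69. Regions near Tex2 and Slc25a13 differed by -0.71 and 0.64.

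The Ptbp2 region was among the 6 of 148 (4.05%) where every TNF value exceeded every NI value. No region had every TNF value below every NI value. The most negative difference was inside Cpsf1, a subunit gene of the complex that cleaves messenger RNA precursors (chr15:76607398-76607606), with 12.4, 16.9 and 15.0 in NI and 8.1 and 12.9 in TNF (log2 -0.87). It rested on TNF replicate 1. Without that library the difference was 0.31, and without TNF replicate 2 it was -1.94 and became the only call (limma adjusted p = 0.0221).

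The regions with a call in both TNF libraries and in no NI library were weak. Their mean normalized tag count over TNF ran from 6.5 to 25.8 with a median of 10, while the core regions had a median over 5 libraries of 24.7. Peaks at least 8-fold over input left 62 such regions and peaks of at least 10 normalized tags 38, while without NI replicate 2 there were 303 and with a single TNF library 3174 or 5273. The strongest was the start of Slc35b2, which encodes a transporter of the sulfate donor PAPS, with 35.5 and 16.1 in TNF. This region lay 684 bp from the end of Nfkbie, the gene of the NF-kB inhibitor IkB-epsilon, and 3776 bp from Hsp90ab1, a gene of the chaperone that holds unliganded GR. In the libraries with Dex it was called in 1 of 3 DEX (14.3) and 1 of 3 TNFDEX (21.2).

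Junb, an AP-1 subunit gene on the minus strand of chromosome 8, had both kinds of region. The region chr8:84976470-84976714, 195 bp past the end of the gene, was called only with TNF, at 25.9 and 20.7. With Dex it was called in 1 DEX library and in all 3 TNFDEX libraries, with a TNFDEX mean of 27.9. The region chr8:84978559-84978733, with its midpoint 102 bp after the start of Junb, had 24.3 and 26.6 in NI replicates 1 and 2 and 29.9 in TNF replicate 1, and no call in NI replicate 3 or TNF replicate 2. It was called in 2 DEX libraries and no TNFDEX library. Only the first of these regions is among the 115.

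The other strong TNF-only regions had means between 15.9 and 24.8. A region 1.6 kb from Fam20c, which encodes a kinase of secreted proteins, had 15.2 and 34.4 and was called in none of the 6 libraries with Dex. A region 133.8 kb from Slc4a3 had 37.5 and 7.8, and regions 39.5 kb from Prickle1 and 183.6 kb from Nr5a2, a liver nuclear receptor gene, had 22.8 and 20.2, and 29.9 and 11. Regions inside Dnajc11, Nfib and D630003M21Rik had 16.7 and 17.0, 22.8 and 10.6, and 19.3 and 13.8. A region 1.9 kb from Has1, a hyaluronan synthase gene, had 20.8 and 11. The regions near Slc4a3 and Prickle1 and inside D630003M21Rik were also called in all 3 DEX libraries, which had no TNF. Those near Nr5a2 and Has1 and inside Nfib were called in 2 DEX libraries, and that inside Dnajc11 in 0. TNF replicate 1 was the higher library at 8 of these 10 sites.

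The 9 regions called in all NI and in no TNF library were also weak, with means of 7.63 to 14.9, and without NI replicate 1, 2 or 3 or TNF replicate 1 there were 50, 53, 191 or 69 of them. All 9 lay inside genes, beside 51.0% of all regions. Within 1 kb of a gene end lay 8 of them, or 88.9%, beside 17.9% of all regions and 22.5% of those called in all 3 NI libraries. The strongest was the start that Cpne1 and Rbm12 share, with 11.9, 21.7 and 11.1. The next lay at the starts of Nup37 and Parpbp with 11.9, 13.5 and 9.2, and inside the ribosomal protein gene Rpl27 with 9.9, 13.5 and 10.7. Regions inside Nexn and at the start of Ptp4a1, a tyrosine phosphatase gene, had means of 9.90 and 9.07. The lowest called peaks of the TNF lists had 6.1 and 5.5.

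These classes differed in how many of their regions the libraries with Dex called. Of the 148 core regions, 145 (98.0%, exact Clopper-Pearson 95% interval 94.2% to 99.6%) were called in at least 2 DEX libraries. The interval treats regions as separate and does not cover the spread between libraries. Core regions were chosen for a call in all 5 libraries. Their median normalized tag count was 24.7, beside 8.7 over all regions. For regions called in at least 2 NI libraries the share called with Dex was 74.4%. It was 81.8% for those called in both TNF libraries and 37.4% for the 115 TNF-only regions, beside 19.99% of all 20582 regions. In at least 2 TNFDEX libraries it was 58.6%, 76.7% and 43.5% for the last 3 of these classes, beside 18.1% of all regions. Of the 9 NI-only regions 2 were called in at least 2 DEX libraries and 0 in at least 2 TNFDEX libraries. At the 145 core regions so called with Dex, the median ratio of the DEX mean to the mean without Dex was 1.31. It was over 2-fold at 27 of them and lower with Dex at 23. Over all 4115 regions called in at least 2 DEX libraries the median ratio was 1.24, with 791 over 2-fold and 1057 lower. The Skp2 region had a DEX mean of 211.7 and the region 195.3 kb from Aldoart1 374.6, while the region 231.9 kb from Nfib had 68.1, below both groups' upper values without Dex.

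**Figure D4:**
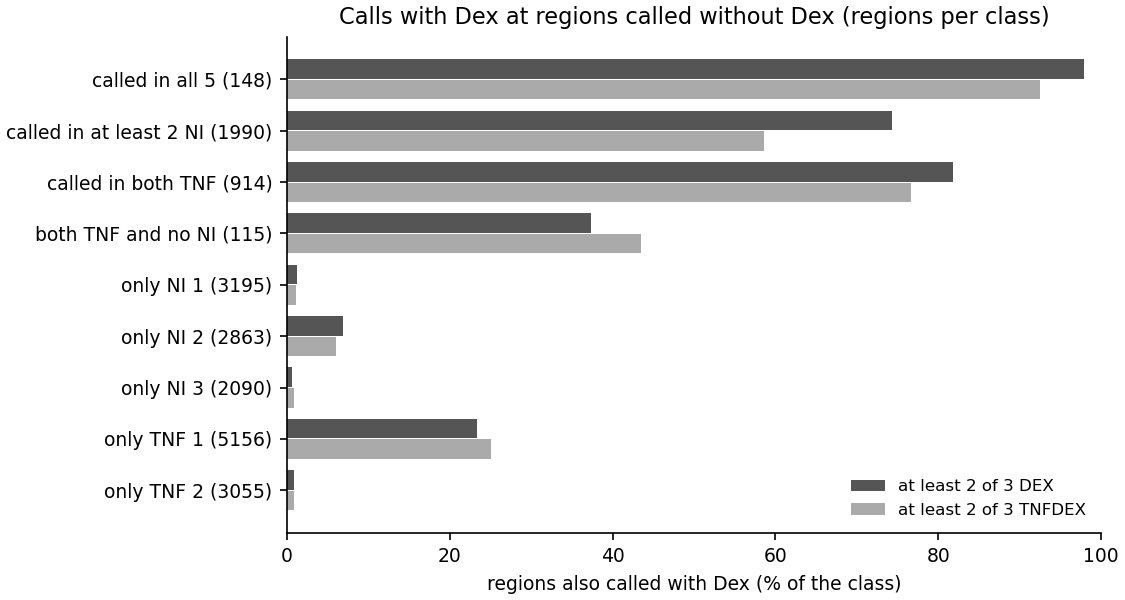
Share of regions (x axis, %) in each class, defined in the NI and TNF libraries, that at least 2 of 3 DEX libraries (dark) or at least 2 of 3 TNFDEX libraries (light) also call. The core regions stand at 98.0% and 92.6%, the TNF-only regions at 37.4% and 43.5%, and regions of NI replicate 1, NI replicate 3 or TNF replicate 2 alone below 2%.

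Genes of the TNF pathway were read next, as genes with a GR peak within 50 kb. Over all 21900 protein-coding genes that share was 32.9%, 37.9% and 17.0% in NI and 40.8% and 25.5% in TNF. A region called in at least 2 NI libraries lay that near to 14.7% of genes and a region called in both TNF libraries to 5.99%. These 2 classes are not equally strict, since they need 2 of 3 NI libraries and 2 of 2 TNF libraries. Of 21 genes of the ligand, its receptors and proximal signalling, 11, 10 and 5 had a peak in NI and 12 and 5 in TNF. None had a region called in both TNF libraries. Birc3, the ubiquitin ligase gene that NF-kB itself induces, had a region at its edge with 10.4 in NI replicate 1 and 33.5 in TNF replicate 1, and no call in the other three. A region 39.8 kb from Tnf, inside Ddx39b, had 15.3 and 21.7 in NI replicates 1 and 2 and 13.2 in TNF replicate 1. Traf1, Traf2, Tab2 and Tab3, which encode adaptors around the receptor and the TAK1 kinase, had no peak within 50 kb in any of the 5. These 4 genes were 19.0% of the list, while 35.1% of all genes had no peak.

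Of 16 genes of the NF-kB kinases, subunits and inhibitors, 4, 8 and 2 had a peak in NI and 11 and 6 in TNF, and 4 had peaks only in TNF libraries (25%, beside 10.95% of all genes) and 0 only in NI libraries (beside 14.99%). The 4 genes were Chuk, Nfkb2, Rel and Tnip2, and each of their regions was called in 1 TNF library only. Their strongest values were 11.7, 10.6, 8.6 and 9.6. For the 16 genes the single region common to both TNF libraries was the Slc35b2 start beside Nfkbie. A TNF-only region lay within 50 kb of 1 of these 16 genes and of 1.01% of all genes. Bcl3, an atypical IkB gene, had a region at 43.8 kb, inside Ceacam16, with 30.7 and 47.4 in NI replicates 1 and 2 and 76.5 in TNF replicate 1. Nfkbia, the gene of IkB-alpha and a textbook target of both NF-kB and GR, had 8.4 in NI replicate 1 and 13.2 in TNF replicate 1. A region 0.925 kb from Ikbkb, the gene of IKK-beta, had 17.4 in NI replicate 2 and 14.2 in TNF replicate 1. Tnfaip3, the gene of the deubiquitinase A20, and Ikbkg had no peak in any of the 5 (12.5% of the list, beside 35.1% of all genes).

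Of 25 NF-kB target cytokine, chemokine and adhesion genes, 9, 10 and 4 had a peak in NI and 12 and 6 in TNF. Among regions called in at least 2 libraries the strongest of the list lay at Id1, 22.3 kb from the survival gene Bcl2l1, with 34.2 and 40.1 in NI replicates 1 and 2 and 43.6 in TNF replicate 1. A region 27.6 kb from the chemokine gene Cxcl5 had 11.4, 25.1 and, in TNF replicate 1, 29.9. The start of the chemokine gene Ccl20 had the highest value of the list, 82.6, in TNF replicate 1 and no call in the other four or with Dex, and is named here after its value was seen. In the list 7 genes had no peak in any library (28%, beside 35.1% of all genes), among them Il6, the main cytokine of the liver acute phase, which was picked here after its value was seen.

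Of 20 AP-1 and immediate early genes, 13, 16 and 4 had a peak in NI and 13 and 5 in TNF. A region called in at least 2 NI libraries lay near 9 of them (45%) and a region called in both TNF libraries near 2 (10%), beside 14.7% and 5.99% of all genes. Egr1, a zinc finger gene of the immediate early response, had a region at 1 end of the gene with 35.2 and 43.0 in NI replicates 1 and 2 and 26.9 in TNF replicate 1. The start of Ier3, an NF-kB and stress induced survival gene, had 18.3, 21.7 and 29.4 in the same libraries. A region 39.96 kb from Ier5 had 19.8, 30.9 and 35.5. NI replicate 3 and TNF replicate 2 had no call at any of these sites.

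Of 20 MAP kinase cascade genes, 7, 10 and 2 had a peak in NI and 9 and 7 in TNF. No gene of this list had a region called in both TNF libraries, beside 5.99% of all genes. A region 40.6 kb from Map2k6, a kinase of p38, had 18.8 and 30.4 in NI replicates 1 and 2 and 42.1 in TNF replicate 1. Its nearest gene was Abca5, at 20.6 kb. A region 0.12 kb from Dusp4, a MAP kinase phosphatase gene, had 12.4, 17.4 and 19.8 in the same libraries. Of 19 JAK-STAT and interferon genes, 10, 7 and 2 had a peak in NI and 8 and 5 in TNF. The region inside Socs3, the feedback inhibitor of STAT3, had 14.9, 21.3 and 18.2.

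Of 24 acute phase genes, 3, 11 and 0 had a peak in NI (12.5%, 45.8% and 0% beside 32.9%, 37.9% and 17.0% of all genes) and 12 and 9 in TNF (50% and 37.5% beside 40.8% and 25.5%), and 5 had peaks in TNF libraries alone (20.8%, beside 10.95% of all genes). Neighbouring members share regions, so these are not separate observations. The 5 genes were Orm1, Orm2, Orm3, Agt and C3, each with peaks in 1 TNF library only. The serum amyloid genes Saa1, Saa2, Saa3 and Saa4 had as their strongest repeated region the same site, 1.26 kb from Saa3, with 12.6 in NI replicate 2 and 9.6 and 10.6 in TNF. The nearest gene to this site was Saal1. The orosomucoid genes Orm1, Orm2 and Orm3 had 1 region in common, nearest to Col27a1 and seen in TNF replicate 2 only at 10.6. The fibrinogen genes shared a region 5.5 kb from Fga with 11.1 in NI replicate 2 and 15.7 in TNF replicate 1. Hp, Crp, Serpina3n, Serpina1a, Itih3 and Itih4 had no peak in any of the 5 (25% of the list, beside 35.1% of all genes). The 3 NI libraries differed among themselves as widely as from TNF, from 0 to 11 genes.

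Of 28 glucocorticoid response genes, 15, 15 and 4 had a peak in NI and 22 and 7 in TNF. A region called in at least 2 NI libraries lay near 8 of them (28.6%, beside 14.7% of all genes). A region called in both TNF libraries lay near 1 (3.57%, beside 5.99% of all genes). Fkbp5, the cochaperone gene that glucocorticoids induce strongly, had only 2 weak regions within 50 kb, both in TNF replicate 2, at 7.3 and 8.7. A region 21.4 kb from Per1, a clock gene with a known GR element, had 33.7 and 31.9 in NI replicates 1 and 2 and 18.2 in TNF replicate 1. Its nearest gene was Tmem107, at 0.17 kb. Ddit4, an inhibitor gene of mTOR whose promoter is printed above, had 15.8 and 14.5 in NI replicates 1 and 2 and 17.2 in TNF replicate 1. The start of Errfi1, a feedback inhibitor gene of the EGF receptor, had 19.8 and 25.1 in NI replicates 1 and 2 and no call in TNF, and that of Igfbp1, an insulin-like growth factor binding protein gene, 13.4 and 19.8 and no call in TNF. Both were called in 1 DEX library, at 33.1 and 32.2.

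Of 19 genes of GR itself, its cofactors and chaperones, 10, 11 and 3 had a peak in NI and 12 and 11 in TNF, and 5 had a region called in both TNF libraries (26.3%, beside 5.99% of all genes). In NI, 7 had a region called in at least 2 libraries (36.8%, beside 14.7%). A region 28.8 kb from Hsp90aa1, an HSP90 gene, had 58.4 and 61.9 in NI replicates 1 and 2, no call in NI replicate 3, and 129.8 and 13.3 in TNF. Its nearest gene was Wdr20, at 9.7 kb. The GR gene Nr3c1 had a region at 39.2 kb with 11.9 and 16.4 in NI and 21.3 in TNF replicate 1. Inside Nr3c1 only weak peaks of 1 library each were called, at 6.8 and 10.1 in NI replicate 2 and 7.8 in TNF replicate 2.

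Of 25 translation genes, 18, 21 and 9 had a peak in NI and 19 and 8 in TNF. A region called in at least 2 NI libraries lay near 13 (52%), and a region called in both TNF libraries near 0, beside 14.7% and 5.99% of all genes. A region just inside the start of Rplp0 had 26.2 and 29.5 in NI replicates 1 and 2 and 29.9 in TNF replicate 1. The start of Dapk3, beside the elongation factor gene Eef2, had 46.4 and 25.2 in NI replicates 2 and 3 and 43.6 in TNF replicate 1.

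Of 17 clock genes, 14, 11 and 5 had a peak in NI and 11 and 7 in TNF. The start that Rpl18 and Sphk2 share, 7.9 kb from Dbp, was called in all 5 libraries, with 19.3, 20.3 and 15.0 in NI and 26.9 and 12.4 in TNF. A region 1.5 kb from the repressor gene Bhlhe40 had 17.3 and 19.3 in NI replicates 1 and 2 and 36.0 and 11 in TNF, with a DEX mean of 65.6. The Bhlhe40 region was not called in NI replicate 3.

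Of 24 hepatocyte identity genes, 14, 16 and 5 had a peak in NI and 17 and 10 in TNF, and 5 had a region called in both TNF libraries (20.8%, beside 5.99% of all genes). In NI, 7 had a region called in at least 2 libraries (29.2%, beside 14.7%). A region 12.8 kb from Cebpa, a liver transcription factor gene, had 19.3 and 36.7 in NI replicates 1 and 2 and 26.4 and 10.1 in TNF. Of 25 liver metabolism genes, 8, 11 and 5 had a peak in NI and 15 and 4 in TNF. A region inside Irs2, an adaptor gene of the insulin receptor, had 21.3 in NI replicate 2 and 31.4 and 11 in TNF. Marker genes of cells that a hepatoma culture should not hold had shares of the same order as all genes: of 12 macrophage markers 4, 5 and 2 in NI and 4 and 3 in TNF, of 12 stromal or endothelial markers 3, 5 and 3 and 4 and 5, and of 14 neuronal markers 6, 5 and 3 and 6 and 3. A peak near a gene was not read as expression of that gene.

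The count of lists with a higher mean in TNF was 10 of 16 and depended on single libraries. It was 4 without NI replicate 3, 5 without TNF replicate 1 and 16 without TNF replicate 2. No list was tested, and TNF replicate 1 has the highest count over all genes too.

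**Figure D5:**
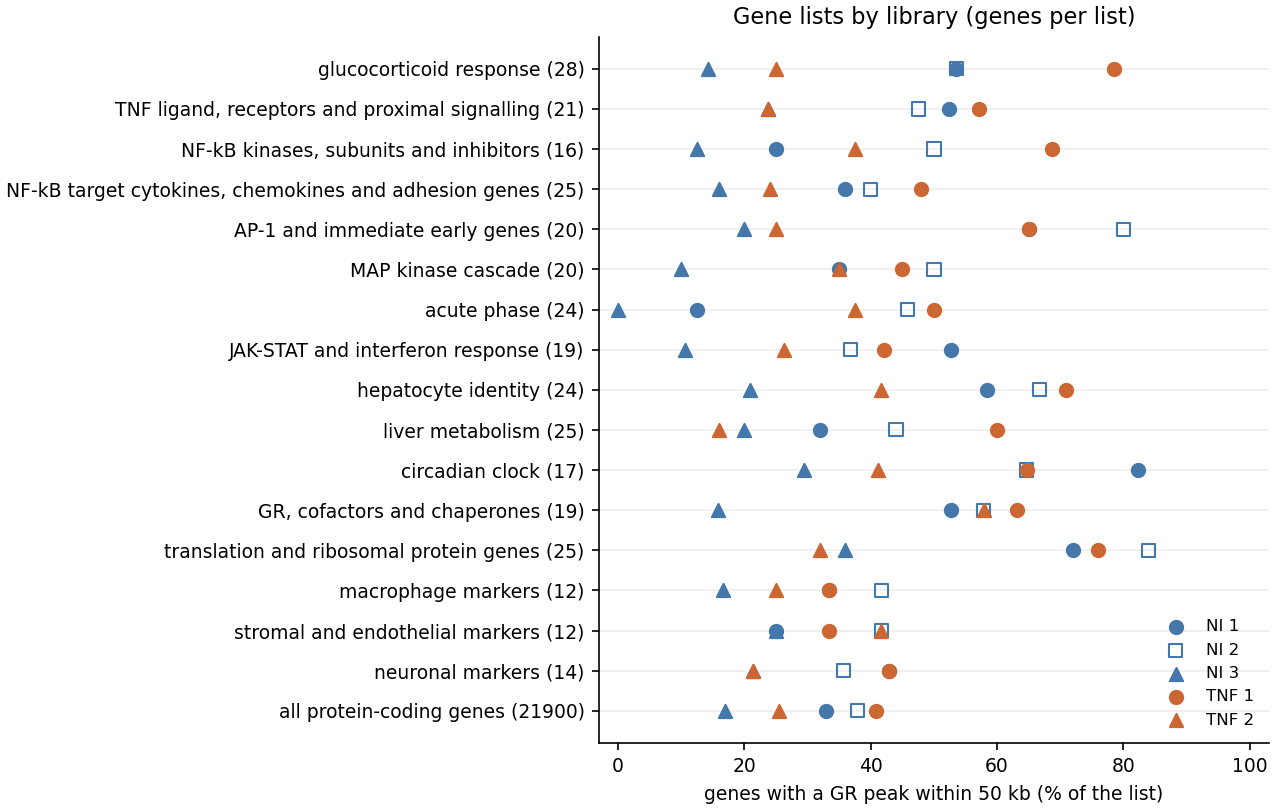
Share of each list's genes with a GR peak within 50 kb (x axis, %), 1 point per library, with NI in blue and TNF in orange and the number of genes in brackets. Points of equal value lie on each other. In most rows NI replicate 3 and TNF replicate 2 are on the left, and for all protein-coding genes the 5 libraries lie between 17.0% and 40.8%.

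At the main setting most promoters under these regions held a GC box and few held a GR half-site. The windows ran from 250 bases before to 50 after each start. At least 1 GC box (GGGCGG) was found in 66.8% of the 446 promoters with a region called in at least 2 NI libraries and in 62.0% of the 129 with a region called in both TNF libraries (exact Clopper-Pearson 95% interval 53.1% to 70.4%), beside 35.7% of all 32851 promoters and 46.2% of those of protein-coding genes. The 129 promoters lay under 108 regions, and the interval treats promoters that share a region as separate. The share of the TNF class was below this interval with stricter or equal-sized peak lists, as given under the limits. The GR half-site (AGAACA) was found in 11.7% and 10.1% of the promoters of the NI and the TNF class, beside 19.0% and 16.2%. The full element (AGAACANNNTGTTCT), which holds that half-site, was found in none of the promoters with a region in either class.

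The full GR element was found in only 3 of all 32851 promoters. It is too rare for its absence from the 446 and 129 promoters to set these classes apart. A relaxed form of the element, which was not planned, was found in 0.224% and 0% of the NI and the TNF class, beside 0.475% of all promoters. The GC content moved with the GC box shares above, with a median of 61.6% and 60.4% in the 2 classes, beside 52.4% of all promoters. Its part in the motif shares was not tested. The NF-kB consensus was found in 7.2% and 6.2%, beside 4.5% of all promoters, and AP-1 motifs (TGANTCA) in 6.5% and 6.2%, beside 7.8%. The CCAAT box was found in 38.6% and 26.4%, beside 37.4%. The ETS core (CCGGAAG), added after the data were seen, was found in 19.96% and 19.4%, beside 8.9%. Among the 25 promoters with a TNF-only region, which lay under 19 such regions, 17 held a GC box, 4 a GR half-site, 2 the NF-kB consensus and 0 an AP-1 motif. A match is a string of letters in the window and not a bound site, and peaks outside promoters were not searched.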

How the data were processed

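GR ChIP-seq was described in 5 libraries of BWTG3 cells, 3 NI and 2 TNF, with 6 libraries with Dex read at their regions. The submitters' processing notes say that the tools were HOMER 4.6, CASAVA 1.8 and Bowtie 1.0.0 and the build was mm10. How duplicates were handled is not given in the sources used here. HOMER called peaks for each library against 1 input, per the file headers, with a false discovery rate of 0.001, deposited Poisson p-values under 0.0001 and 4 times the tags of both the input and the 10000 bp around. The deposited signal of a peak is its normalized tag count, scaled by the authors to 20000000 tags per library. The deposited ratios are folds over input and surroundings, the deposited fraction is the focus ratio, and the deposited score is the position-adjusted tag number. Of these, only the fold over input was used, to filter peaks in an alternative setting (at least 8-fold). The lists hold no counts over common windows, so no count model was run. The tag threshold was 14 or 15 per the file headers and the lowest normalized tag counts were 5.4 to 6.1, so a missing call is weak evidence of absence.

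Peaks sharing at least 1 bp were merged over the 5 lists (mitochondrial peaks apart; largest peak per library and region). Library values were tested by exact two-sided permutation, and levels at regions called in all 5 by limma 3.58.1 (R 4.3.3) on log2 of the normalized tag count, no pseudocount, trimmed mean of M values scaling and Benjamini-Hochberg adjustment at 0.05; the script was tested on simulated data. All else used Python 3.11.15 with scipy 1.17.1, pandas 2.3.3, numpy 2.4.6 and, for plots, matplotlib 3.10.9. Gene spans and promoters came from RefSeq tables of GRCm38.p6 with 21900 protein-coding genes, which have no exons. Regions are named by the nearest protein-coding gene, or in the gene list paragraphs by a list member within 50 kb, which need not be the nearest gene. No claim is made on which gene they act on. Of 322 entries in the 16 gene lists 321 were found; Mx1 was not. A genome sequence was not used here, and the input sample was not analysed here.

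Named were the 10 strongest TNF-only, the 5 strongest NI-only and the 10 strongest common regions, the 5 regions of smallest p, the largest and smallest difference, up to 4 members per list with the strongest region in at least 2 libraries, and Nr3c1, Fkbp5, Nfkbia, Tnfaip3 and Junb. Comparison, lists and rules were chosen with earlier results of these data known. Alternatives were each library left out, stricter and equal-sized lists, larger overlap, other distances, scalings, pseudocount and filters, and blocks.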

Additional observations from a re-analysis of the deposited data

Results flagged for a closer look

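1 value outside the main measurement exceeded the level in the untreated libraries. TNF replicate 2 had 0.468% of its tags in mitochondrial peaks (95% Wilson interval 0.466% to 0.470%, counting error only), beside 0.436% in NI replicate 3, the highest of the NI libraries, and 0.0348% in TNF replicate 1. Both libraries with a high share also had the smallest nuclear lists of their groups, 4130 and 2522 peaks. Whether these are linked was not tested.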

How the results depend on the processing

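Limits: with 3 and 2 libraries no permutation test could pass 0.05, and the weakest peaks hold few tags. Leaving out 1 library at a time moved the TNF-only count of 115 to between 119 and 5273 (119 without NI replicate 3, 142 without NI replicate 1, 303 without NI replicate 2, 3174 without TNF replicate 1, 5273 without TNF replicate 2), the NI-only count of 9 to between 10 and 191 (50, 53 and 191 without each NI replicate in turn, 69 and 10 without each TNF replicate) and the 582 shared regions to between 149 and 1684 (160, 149 and 567 without each NI replicate in turn, 611 and 1684 without each TNF replicate). The number of gene lists with a higher TNF mean moved from 10 to between 4 and 16. Leave-one-out gave a log2 difference in peak number of -0.11 to 1.00 and in the share of tags of -0.0988 to 0.444 percentage points. Both were reversed without TNF replicate 1 and highest without TNF replicate 2. Without TNF replicate 1 the region in Cpsf1 also reversed (log2 0.31, limma); without TNF replicate 2 limma called 1 region lower, that in Cpsf1 (log2 -1.94), a fit in which the lone TNF library is assumed to vary like the NI libraries. Peaks at least 8-fold over input gave 62 TNF-only, 5 NI-only and 330 shared regions, 100% of common regions called with Dex and 51.5% of promoters with a GC box. Such GC box shares are for regions called in both TNF libraries, and 46.2% of promoters of protein-coding genes held one. A normalized tag count of at least 10 gave 38, 1 and 329 regions. Equal numbers of strongest peaks gave 37 TNF-only and 14 NI-only regions and 48.6% with a GC box, and no value for the peak number by construction; the causes of these moves were not tested. The mean Jaccard index within groups minus that between groups, -0.026, changed sign without TNF replicate 1, to 0.020.

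Limma made 0 calls in either direction under every other setting run. Between 0 and 21 regions then had an unadjusted p under 0.05, and the lowest adjusted p, 0.0843, came with the mitochondrial split as a term. The labels name nothing that libraries of equal number share. With 2 TNF libraries the check of their deviations cannot show pairing, since its values mirror each other (0.387 and -0.387 for NI replicate 1 with TNF replicates 1 and 2). With the replicate block, which leaves 1 residual degree of freedom, limma called 0 regions higher and 0 lower (2 at an unadjusted p under 0.05).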

Other observations

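Regions seen in 1 library only differed in how often the libraries with Dex called them. Of the 5156 regions found only in TNF replicate 1, 23.3% were called in at least 2 DEX libraries and 25.1% in at least 2 TNFDEX libraries. Over all 20582 regions these shares were 19.99% and 18.1%. The same shares were 6.92% and 5.97% for the 2863 regions found only in NI replicate 2, 1.19% and 1.13% for the 3195 of NI replicate 1, 0.622% and 0.909% for the 2090 of NI replicate 3, and 0.884% and 0.851% for the 3055 of TNF replicate 2. The private regions of TNF replicate 1 had a median normalized tag count of 10.1, and those of the other four 7.3 to 8.2.

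Near the private regions of TNF replicate 2 the ETS core letters were found in 36.7% of 120 promoters, beside 20.6% of 621 for TNF replicate 1, and 18.6% of 242, 27.6% of 421 and 11.7% of 60 for NI replicates 1, 2 and 3. The share was 8.9% of all promoters and 11.6% of those of protein-coding genes. The 120 promoters lay under 98 regions, and this motif was added after the data were seen. Only 6 of the 148 regions common to all 5 libraries had every TNF value above every NI value. Apart from the Ptbp2 region they were nearest to Tbx18, Etv1, Foxn3, Smarce1 and Pex14, picked here after their values were seen, with limma log2 differences of 0.55, 0.48, 0.27, 0.14 and 0.06 and none called.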
